A study of Mus musculus with 18 samples.

Results

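The cells of the thick ascending limb of the loop of Henle reabsorb salt without water, and 8 of the genes they use were followed in the kidneys of offspring of protein-restricted and control dams. The genes are *Umod*, *Slc12a1*, *Kcnj1*, *Bsnd*, *Cldn10*, *Cldn16*, *Cldn19*, and *Egf*. They were taken as a named list, by gene symbol, and 8 of 8 were found among the 78239 genes counted in each library. All 8 passed the filter on low counts in every comparison.

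The mice were CD-1 outbred wild-type animals aged 6 wk. The dams ate a low protein (LP, 8% protein) or a normal protein (NP, 18% protein) diet, matched for calories, from mating through lactation, and all offspring were weaned to the 18% diet. There was 1 library per mouse, of 5 LP and 5 NP males and of 5 LP and 3 NP females. The study's adult mice are described as having undergone a measurement of glomerular filtration rate, though values are given for only part of them. All received injections of cationic ferritin, a tracer of glomeruli. Male kidneys were collected 90 min and female kidneys 24 h after the last injection, so that sex and collection time cannot be told apart in any comparison of females with males. RNA came from a piece of the left kidney. In such bulk tissue, fewer cells of a type and less RNA per cell cannot be told apart. The dam of each mouse is not given in the labels, and the study used fewer litters of adult mice than there were mice in a diet group, so that some mice share a dam and are not independent.

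In the thick ascending limb, an apical cotransporter brings sodium, potassium, and chloride into the cell, potassium returns to the lumen through a channel, and chloride leaves on the blood side. The lumen becomes positive, and this voltage drives sodium, calcium, and magnesium between the cells through pores made of claudins. *Slc12a1* encodes the cotransporter NKCC2, the target of loop diuretics. *Kcnj1* encodes ROMK, the apical potassium channel, which is also made in the distal convoluted tubule and in principal cells. *Bsnd* encodes barttin, the subunit that the basolateral chloride channels need, and it is also made in the distal convoluted tubule and intercalated cells. *Cldn10* encodes a claudin with a sodium-conducting form in this segment and an anion-conducting form in the proximal tubule. *Cldn16* and *Cldn19* encode the claudins that together allow calcium and magnesium reabsorption. *Umod* encodes uromodulin, a protein released into normal urine, and *Egf* encodes the precursor of epidermal growth factor, which this and the next segment release.

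The depth of the libraries ranged from 14050486 to 23562411 reads assigned to genes, with a median of 16747971.5. LP female 1, LP female 2, and NP female 3 were set apart by an earlier clustering of the whole transcriptome, and results are given with and without them. In these 3 libraries, the summed CPM (counts of a gene scaled to a common library total of reads on genes) of 6 glucocorticoid-response genes were 409, 409, and 569.9, against 1197 to 1649.6 in the other 5 females and 649 to 1176 in males. Those of 6 interferon-response genes were 89.5, 111, and 73.8 CPM, against 476 to 2170.3 in the other females and 444 to 836 in males. Of the 5 adrenal markers, *Cyp11b1* and *Cyp11b2* had 0 counts in every library. *Star* was found in every library, at 0.414 to 4.08 CPM, and *Cyp11a1* and *Cyp21a1* stayed below this range. The 5 adipocyte markers together reached at most 74.7 CPM.

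All 8 genes were expressed in every library, at levels that spanned a wide range. Per kilobase of exon, the scale on which genes can be compared, *Umod* was the highest, with a median of 818 CPM per kb over 18 libraries (450.3 to 2005). *Slc12a1* followed with a median level of 173 CPM per kb, *Egf* with 104, *Kcnj1* with 65.0, and *Cldn10* with 61.0. *Bsnd* had a median level of 15.99 CPM per kb, *Cldn16* 8.49, and *Cldn19* 4.82. *Umod* exceeded *Slc12a1* in 18 of 18 libraries, *Slc12a1* exceeded *Egf* in 18, and *Egf* exceeded *Kcnj1* in 15. *Cldn10* exceeded *Bsnd*, and *Bsnd* exceeded *Cldn16*, in 18 of 18 libraries, and *Cldn16* exceeded *Cldn19* in 17. *Kcnj1* and *Cldn10* could not be ordered over all mice, since *Kcnj1* was the higher in 9 of 18 libraries. In males, *Kcnj1* had a median of 52.1 CPM per kb and *Cldn10* 61.0, whereas in females *Kcnj1* had a median of 103 CPM per kb and *Cldn10* 59.4. With the length of the canonical transcript in place of all exons, *Egf* stood above *Slc12a1* and *Cldn10* above *Kcnj1*, since the merged exons of *Egf* span 12225 bases and its canonical transcript 5693, and those of *Cldn10* 3015 and 2128.

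On GRCm39, *Umod* (ENSMUSG00000030963.7) lies on chromosome 7 from 119061934 to 119078505, *Slc12a1* (ENSMUSG00000027202.13) on chromosome 2 from 124994425 to 125071922, and *Kcnj1* (ENSMUSG00000041248.10) on chromosome 9 from 32283789 to 32310493. *Bsnd* (ENSMUSG00000025418.8) and *Cldn19* (ENSMUSG00000066058.12) are both on chromosome 4, from 106340653 to 106349537 and from 119112591 to 119119635. *Cldn10* (ENSMUSG00000022132.16) lies on chromosome 14 from 119025320 to 119112901, *Cldn16* (ENSMUSG00000038148.14) on chromosome 16 from 26281885 to 26301515, and *Egf* (ENSMUSG00000028017.8) on chromosome 3 from 129470410 to 129549093. The library did not keep strand, and reads where genes overlap cannot be assigned to one of them. Exons of *Cldn19* overlap the antisense gene *Gm12927* (233 counts over all libraries), and those of *Egf* overlap *Gm42697* (300 counts) and *Gm42650* (685 counts). *Kcnj1* and *Cldn16* overlap no other annotated gene. The counts of *Cldn10* pool its sodium-conducting and anion-conducting forms.

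The 250 bases before the canonical transcript start are shown for *Kcnj1*, *Cldn16*, and *Slc12a1*, which are among the members that were higher in females than in males, from GRCm39 with GENCODE vM39 starts. Each is written 5′ to 3′ on the strand of the gene. They are chr9:32283539-32283788 (plus strand), chr16:26281635-26281884 (plus strand), and chr2:124994175-124994424 (plus strand). Capitals mark matches to TATAAA, the core of a TATA box, or to AGAACA, a hexamer bound by steroid receptors, which reads TGTTCT on the other strand.
Kcnj1: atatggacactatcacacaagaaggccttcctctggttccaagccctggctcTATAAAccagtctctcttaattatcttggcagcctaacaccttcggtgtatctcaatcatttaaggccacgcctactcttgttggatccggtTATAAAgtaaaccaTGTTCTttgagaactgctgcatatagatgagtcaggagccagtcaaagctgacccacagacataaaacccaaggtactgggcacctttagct
Cldn16: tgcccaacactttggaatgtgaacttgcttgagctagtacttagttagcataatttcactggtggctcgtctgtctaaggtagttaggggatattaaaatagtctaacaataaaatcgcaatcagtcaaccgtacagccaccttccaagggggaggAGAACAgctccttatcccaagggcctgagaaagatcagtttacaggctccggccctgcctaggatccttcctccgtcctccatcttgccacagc
Slc12a1: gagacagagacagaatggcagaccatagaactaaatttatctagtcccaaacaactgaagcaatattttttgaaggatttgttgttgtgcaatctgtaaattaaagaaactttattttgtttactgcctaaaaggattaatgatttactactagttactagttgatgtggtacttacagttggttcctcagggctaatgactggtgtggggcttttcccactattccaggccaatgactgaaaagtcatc

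Both strands were searched, and the motifs searched do not overlap each other in these windows. The *Kcnj1* window held TATAAA at 198 to 193 and at 106 to 101 bases before the start, and it was the only 1 of the 8 members with that motif, which 11.9% of 21770 windows of protein-coding genes hold. AGAACA was found before 4 of the 8 members, *Kcnj1*, *Cldn10*, *Cldn16*, and *Egf*, against 14.3% of all windows. In *Kcnj1* and *Cldn16* it lay at 92 to 87 and at 94 to 89 bases before the start. GTTAAT, part of the site of HNF1 factors, was found before *Umod* alone (6.28% of all windows). AAGGTCA, the core site of oestrogen-related receptors, was found before 0 of 8 (3.93% of all windows). Such matches describe letters in the window only.

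The first question was whether the protein supply of the dam altered these genes in male offspring. It was not detectable in any of them. With edgeR's quasi-likelihood test, adjusted over all genes tested, 0 of 8 members differed between LP and NP males, where 0.0379% of 13181 genes did. At an unadjusted p under 0.05 the count was also 0 of 8, where 3.84% of all genes passed, and DESeq2 called 0 of 8. The levels of LP and NP males overlapped for 8 of 8 members, where 0.675% of all genes did not overlap in normalized counts (counts divided by DESeq2's size factors).

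*Slc12a1*, the cotransporter, was at 786, 678, 742, 1149, and 1252 CPM in LP males and at 727, 1059.8, 579, 883, and 939.6 CPM in NP males. The highest values were those of LP males 4 and 5, and the lowest was that of NP male 3. The log2 fold change, LP minus NP, was 0.11 (SE 0.19, 95% interval -0.29 to 0.52, adjusted p = 1.00, edgeR). *Kcnj1*, the potassium channel, was at 179, 169, 171, 205, and 228 CPM in LP males and at 161, 208, 120.3, 171, and 207 CPM in NP males. The values interleaved, and the log2 fold change was 0.11 (SE 0.14, 95% interval -0.19 to 0.41). *Umod* was at 1630.1, 1519, 2032, 2414, and 2637 CPM in LP males and at 2085, 1874, 1331, 2108, and 2436 CPM in NP males. Its mean was 2046 ± 484 CPM (SD, n = 5) in LP males and 1967 ± 408 CPM (SD, n = 5) in NP males, which differ by 0.03 on the log2 scale (SE 0.18, 95% interval -0.35 to 0.42).

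*Egf* was close between the male groups, at 1227 ± 211 CPM (SD, n = 5) in LP and 1250 ± 168 CPM (SD, n = 5) in NP males, and its interval was the narrowest of the 8, from -0.31 to 0.21 on the log2 scale. *Bsnd* was at 34.4 ± 7.83 CPM in LP males and 35.5 ± 10.98 CPM in NP males (SD, n = 5 each), with a log2 fold change of -0.07 (SE 0.21). Among the claudins, *Cldn10* had a log2 fold change of 0.07 (SE 0.13) and *Cldn16* of -0.02 (SE 0.17). *Cldn19* had the largest difference, -0.31 (SE 0.25, 95% interval -0.85 to 0.22), with 17.6 ± 4.25 CPM in LP males and 21.7 ± 7.30 CPM in NP males (SD, n = 5 each). Exact two-sided permutation tests of the diet labels gave p from 0.349 to 0.889 over the 8 members, where 5 against 5 could reach 0.00794. The median log2 fold change of the members was 0.01, beside -0.0039 over all genes tested.

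The same question in females gave 0 of 8 members called, where 0.0% of 13510 genes were called, and 0 of 8 at an unadjusted p under 0.05, where 4.17% of all genes passed. DESeq2 also called 0 of 8. The groups overlapped for 8 of 8 members, where 2.96% of all genes did not overlap. The test was far less sharp than in males for *Umod*, *Slc12a1*, and *Egf*, whose spread among females was wider. *Umod* was at 1378, 3235, 3873, 3845, and 4192 CPM in LP females and at 5539, 2686, and 1244 CPM in NP females. The NP females thus held both the highest and the lowest value, and the log2 fold change of 0.10 had an interval from -0.98 to 1.19 (adjusted p = 0.972, SE 0.48, edgeR). *Slc12a1* was at 525.5, 1503, 2019, 1745, and 2271 CPM in LP females and at 1843, 1539.6, and 757 CPM in NP females. LP minus NP was 0.25 on the log2 scale (SE 0.45, 95% interval -0.77 to 1.27).

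*Egf* was at 911, 1131, 2727, 2449, and 2977 CPM in LP females and at 2679.9, 1938, and 961 CPM in NP females, and LP minus NP was 0.17 on the log2 scale (SE 0.47). Both diet groups held low and high mice. *Kcnj1* was the most even, at 351 ± 17.7 CPM (SD, n = 5) in LP and 312 ± 48.7 CPM (SD, n = 3) in NP females, and its log2 fold change was 0.17 (SE 0.13, 95% interval -0.13 to 0.47). *Bsnd* was at 57.4 ± 16.1 CPM (SD, n = 5) in LP and 65.7 ± 8.08 CPM (SD, n = 3) in NP females, with a log2 fold change of -0.22 (SE 0.20). For *Cldn10* and *Cldn16* the log2 fold changes were 0.07 (SE 0.20) and -0.04 (SE 0.23), and for *Cldn19* it was -0.39 (SE 0.34, 95% interval -1.16 to 0.38). Exact permutation p ranged from 0.107 for *Kcnj1* to 0.857 for *Slc12a1*, where 5 against 3 could reach 0.0357. The log2 fold changes of *Umod*, *Slc12a1*, *Egf*, and *Cldn19* in females changed sign without NP female 3, to -0.26, -0.012, -0.12, and 0.034. The median log2 fold change was 0.09 for the members and -0.01 for all genes.

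Whether the diets differed more in one sex than in the other was tested as an interaction, LP minus NP in females less LP minus NP in males. It was called for 0 of 8 members, where 0.0158% of 12665 genes were called, and for 0 of 8 at an unadjusted p under 0.05, where 4.02% passed. DESeq2 called 0 of 8. The estimates ran from -0.16 for *Bsnd* to 0.21 for *Egf* on the log2 scale, with adjusted p from 0.987 to 1.00. The interval was narrowest for *Kcnj1*, from -0.35 to 0.45, and for *Umod* it ran from -0.98 to 1.10.

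**Figure D1:**
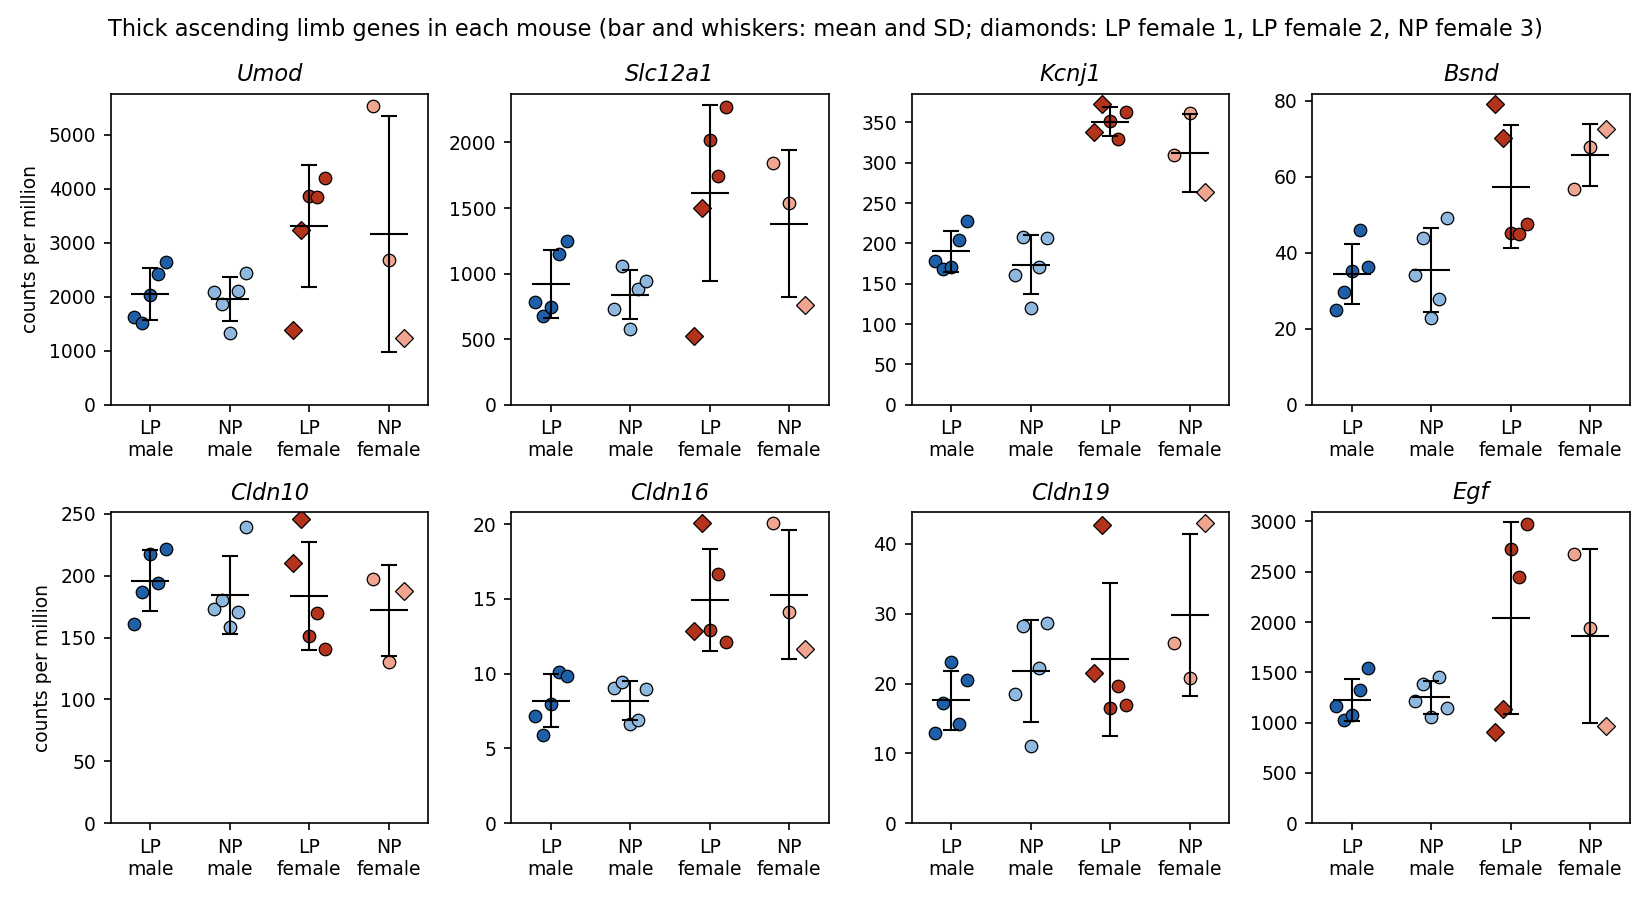
Level (CPM) of each member in each mouse, by diet and sex, on axes that start at 0. Points are mice, bars and whiskers are the mean and SD, and diamonds mark LP female 1, LP female 2, and NP female 3. LP and NP mice of the same sex overlap in every panel, and females lie above all males for *Kcnj1* and *Cldn16*.

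Females had more mRNA of the apical potassium channel, the chloride channel subunit, and 1 of the claudins for divalent ions than males. The mRNA of the cotransporter was also called as higher, but this call was lost in 11 of the 18 fits that left out 1 library. Averaged over the diets, 4 of 8 members were called, all 4 higher in females, where 38.7% of 12665 genes were called in either direction and 19.8% were called as higher in females. The median log2 fold change, female minus male, was 0.59 for the members and 0.05 for all genes. In 2 of 8 members, all females lay above all males, where 2.39% of all genes did so and 8.27% did not overlap in either direction. Sex and the time from injection to collection cannot be told apart here.

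*Kcnj1* was at 338, 373, 351, 329.7, and 363 CPM in LP females and at 309.7, 361, and 264 CPM in NP females, against 120.3 to 228 CPM in the 10 males. The lowest female, NP female 3, was above the highest male, LP male 5. The log2 fold change was 0.73 (SE 0.09, 95% interval 0.53 to 0.93, adjusted p = 1.08e-05, edgeR). *Cldn16* was at 12.9, 20.1, 12.9, 16.7, and 12.1 CPM in LP females and at 20.1, 14.1, and 11.7 CPM in NP females. The males had 7.19, 5.87, 7.97, 10.1, and 9.82 CPM with the LP diet and 9.05, 9.44, 6.62, 6.92, and 8.96 CPM with the NP diet. Again no male reached the lowest female, and the log2 fold change was 0.74 (adjusted p = 0.000414, SE 0.14, edgeR). For both genes the exact permutation p was 4.57e-05, the smallest that 10 against 8 can give.

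*Bsnd* was at 79.0, 70.2, 45.1, 44.9, and 47.6 CPM in LP females and at 56.7, 67.9, and 72.5 CPM in NP females. Males were at 25.0, 29.7, 35.1, 45.8, and 36.2 CPM in the LP group and at 34.0, 43.8, 22.7, 27.7, and 49.2 CPM in the NP group. The lowest females, LP females 3, 4, and 5, lay below the highest male, NP male 5, and LP females 3 and 4 also lay below LP male 4. The log2 fold change was 0.68 (adjusted p = 0.00249, SE 0.16, edgeR, and exact permutation p = 0.000731). *Slc12a1* was at 1525 ± 602 CPM (SD, n = 8) in females and 879 ± 218 CPM (SD, n = 10) in males. LP female 1, at 525.5 CPM, was below every male, and NP female 3, at 757 CPM, was within their range. The log2 fold change was 0.63 (SE 0.23, 95% interval 0.14 to 1.12, adjusted p = 0.0404, edgeR), and the exact permutation p was 0.0504. This call was lost in 11 of the 18 fits that each left out 1 library. The adjusted p was 0.0606 without LP male 1, 0.0651 without LP male 2, 0.0636 without LP male 3, 0.0607 without NP male 1, 0.0668 without NP male 3, and 0.0514 without NP male 4. Among females it was 0.0651 without LP female 3, 0.0585 without LP female 4, 0.0705 without LP female 5, 0.125 without NP female 1, and 0.0707 without NP female 2.

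*Umod*, *Egf*, *Cldn19*, and *Cldn10* did not pass. *Umod* was at 3249 ± 1449.8 CPM (SD, n = 8) in females and 2007 ± 424 CPM (SD, n = 10) in males, with a log2 fold change of 0.55 (adjusted p = 0.0865, SE 0.25, edgeR). *Egf* was at 1972 ± 859 CPM in females and 1239 ± 180.0 CPM in males, with 0.52 (adjusted p = 0.0765, SE 0.23). For *Cldn19* the log2 fold change was 0.31 (SE 0.23, 95% interval -0.17 to 0.78). *Cldn10* was the only member with a lower mean in females, 179 ± 38.7 CPM (SD, n = 8) against 190.3 ± 27.5 CPM (SD, n = 10), and its log2 fold change was -0.23 (adjusted p = 0.149, SE 0.12). *Umod* passed without LP female 1 (adjusted p = 0.0227) or NP female 3 (adjusted p = 0.018). *Egf* passed without LP female 1 (adjusted p = 0.0176), LP female 2 (adjusted p = 0.0308), or NP female 3 (adjusted p = 0.027).

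Without LP female 1, LP female 2, and NP female 3 together, 7 of 8 members were called, where 37.7% of 12949 genes were. The log2 fold change of *Umod* was then 0.89 (adjusted p = 0.000991), that of *Egf* 0.89 (adjusted p = 1.5e-05), and that of *Slc12a1* 0.95, all 3 in edgeR. *Cldn10* was then called as lower in females, with -0.39 (adjusted p = 0.0275), and *Cldn19* was at -0.07. *Kcnj1* had 0.79, *Cldn16* 0.79, and *Bsnd* 0.49, and each stayed called. The 3 libraries left out were chosen from these same data. Among females they held the 3 lowest values of *Egf* and *Slc12a1* and the 3 highest of *Bsnd*. Leaving them out by itself raises the female means of *Umod*, *Egf*, and *Slc12a1*, so these calls are not independent support. In LP mice alone 3 of 8 members were called, *Kcnj1*, *Cldn16*, and *Bsnd*, where 18.9% of 13228 genes were. In NP mice alone 2 of 8 were called, *Kcnj1* and *Cldn16*, where 15.1% of 12952 genes were. The log2 fold change of *Kcnj1* was 0.75 in LP and 0.70 in NP mice, and that of *Cldn16* was 0.73 in LP and 0.74 in NP mice. *Kcnj1*, *Cldn16*, and *Bsnd* were called in 18 of the 18 fits that left out 1 library.

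**Figure D2:**
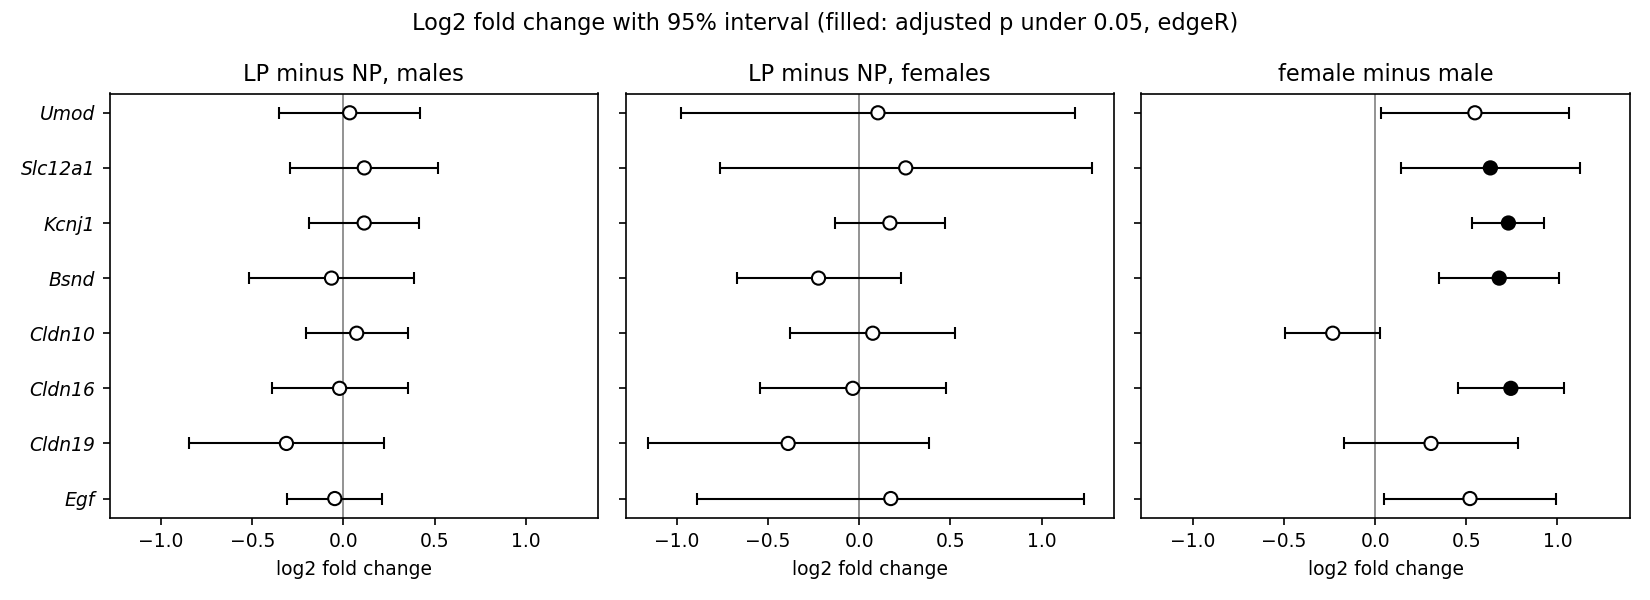
Log2 fold change of each member (points) with its 95% interval (lines), LP minus NP in males, LP minus NP in females, and female minus male averaged over the diets. Filled points passed an adjusted p under 0.05. All diet intervals cross 0, and the filled points are *Slc12a1*, *Kcnj1*, *Bsnd*, and *Cldn16* in the comparison of the sexes, from 0.63 to 0.74.

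Of the markers of other parts of the nephron, the summed level of 5 distal convoluted tubule markers did not overlap between the sexes, at 1417 to 2212 CPM in females and 639.8 to 1274 CPM in males. The ranges overlapped for the 5 lists that follow. For 6 intercalated cell markers they were 201 to 343 CPM and 137 to 206 CPM, for 6 principal cell markers 623 to 1219.6 CPM and 391 to 1041 CPM, and for 5 podocyte markers 251 to 529 CPM and 150.3 to 257 CPM. The 6 inner medulla and thin limb markers summed to 238 to 854 CPM in females and 151 to 528 CPM in males, and 7 proximal tubule markers to 7796 to 12688 CPM in females and 11347 to 13985 CPM in males. Among the inner medulla and thin limb markers, *Slc5a3* had a median of 209 CPM over 18 libraries. The others of that list had medians from 4.38 to 54.7 CPM, so its sums rest largely on *Slc5a3*. The 6 tubular injury markers summed to 1324 to 2396 CPM in females and to 328 to 765 CPM in males, with no overlap. They are *Havcr1*, *Lcn2*, *Krt20*, *Vcam1*, *Spp1*, and *Sox9*. Their single levels were not compared, so the sum may rest on few of them and does not by itself show injury. No marker of these lists was at 0 in all libraries of a sex. The part of these differences in the result for the members was not tested.

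By the ratio of the highest to the lowest CPM, the females differed most from each other in *Umod* (4.45), *Slc12a1* (4.32), and *Egf* (3.27), followed by *Cldn19* (2.60). By the SD as a percent of the mean, *Cldn19* (42.0%) stood above *Slc12a1* (39.5%). Low values of *Umod*, *Slc12a1*, and *Egf* went with high values of *Bsnd*. In LP female 1, LP female 2, and NP female 3, *Egf* was at 911, 1131, and 961 CPM, below the 1938 to 2977 CPM of the other 5 females. *Bsnd* was at 79.0, 70.2, and 72.5 CPM in the same 3 mice, above the 44.9 to 67.9 CPM of the other 5. *Slc12a1*, at 525.5, 1503, and 757 CPM, was lowest in these 3 mice, whereas for *Umod* LP female 2, at 3235 CPM, lay above NP female 2, at 2686 CPM. *Cldn19* was highest in LP female 2 and NP female 3, at 42.7 and 43.0 CPM, and *Cldn10* was highest in LP female 2 and LP female 1, at 246 and 210.2 CPM. *Kcnj1* and *Cldn16* did not set these 3 mice apart, since LP female 2 had the highest and NP female 3 the lowest value of both. The same 3 libraries were lowest of the females in the inner medulla and thin limb markers, at 238, 496, and 364 CPM against 669 to 854 CPM, and in the glucocorticoid-response and interferon-response genes given above. They were also lowest in the sum of 10 other transport genes of the thick ascending limb, at 8208 to 8950 CPM against 11775 to 14069 CPM, and in the tubular injury markers, at 1324 to 1378 CPM against 1609 to 2396 CPM. Their part in the values of the members was not tested.

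**Figure D3:**
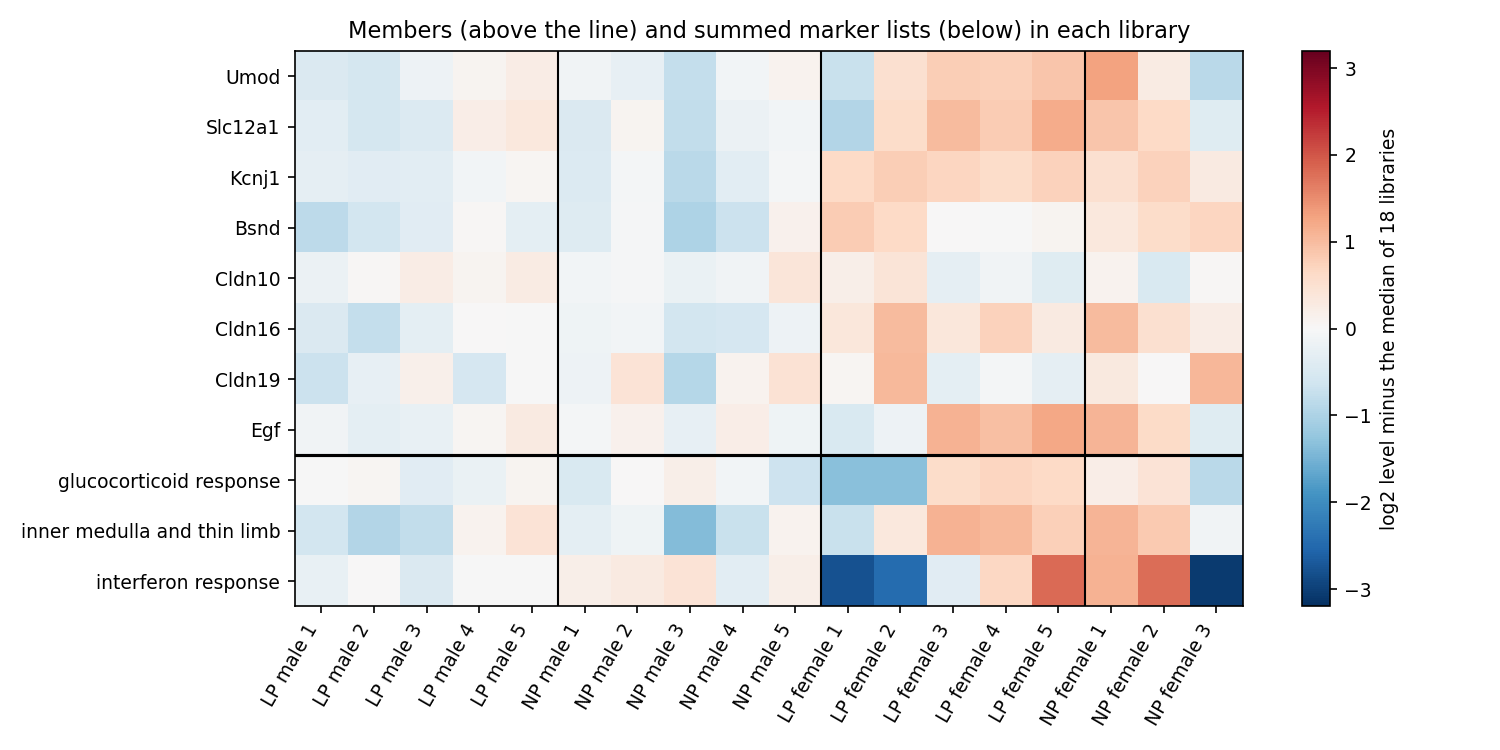
Log2 level (CPM) of each member in each of 18 libraries minus its median over the libraries, red above and blue below, with 3 summed marker lists under the line. In LP female 1, LP female 2, and NP female 3, *Egf* and the glucocorticoid and interferon lists are blue while *Bsnd* is red, and NP male 3 is blue for all 8 members.

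In males, single mice were lowest or highest in several members at once. NP male 3 had the lowest male value of *Umod*, *Slc12a1*, *Kcnj1*, *Bsnd*, *Cldn10*, and *Cldn19*, with 1331 CPM of *Umod* and 11.05 CPM of *Cldn19*. LP male 5 had the highest male value of *Umod*, *Slc12a1*, *Kcnj1*, and *Egf*, with 2637 CPM of *Umod* and 1544 CPM of *Egf*. The inner medulla and thin limb markers also summed to the least in NP male 3, at 151 CPM, and to the most in LP male 5, at 528 CPM. As said above, *Slc5a3* had the highest median of that list. The part of these markers in the spread of the members was not tested.

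Correlations of log2(CPM + 1) between pairs of members, with group means removed, describe this, and the points share library and tissue piece. Over 10 males, 28 of 28 pairs had a Pearson correlation above 0, from 0.13 to 0.92 with a median of 0.72. The highest was that of *Slc12a1* with *Kcnj1*, and the lowest that of *Cldn10* with *Egf*. Over 8 females, 15 of 28 were above 0, from -0.93 to 0.92 with a median of 0.21. *Umod*, *Slc12a1*, and *Egf* varied together in females, with correlations of 0.92, 0.87, and 0.89, and each ran opposite to *Bsnd*, at -0.75, -0.82, and -0.93. Without LP female 1, LP female 2, and NP female 3, 28 of 28 pairs over the remaining 15 mice were above 0, with a median of 0.57. Over all 18 it was 19 of 28, with a median of 0.39. The 15 mice include the 10 males, in whom all pairs were above 0. The remaining females were not taken alone, so this does not show whether *Bsnd* ran opposite in them.

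**Figure D4:**
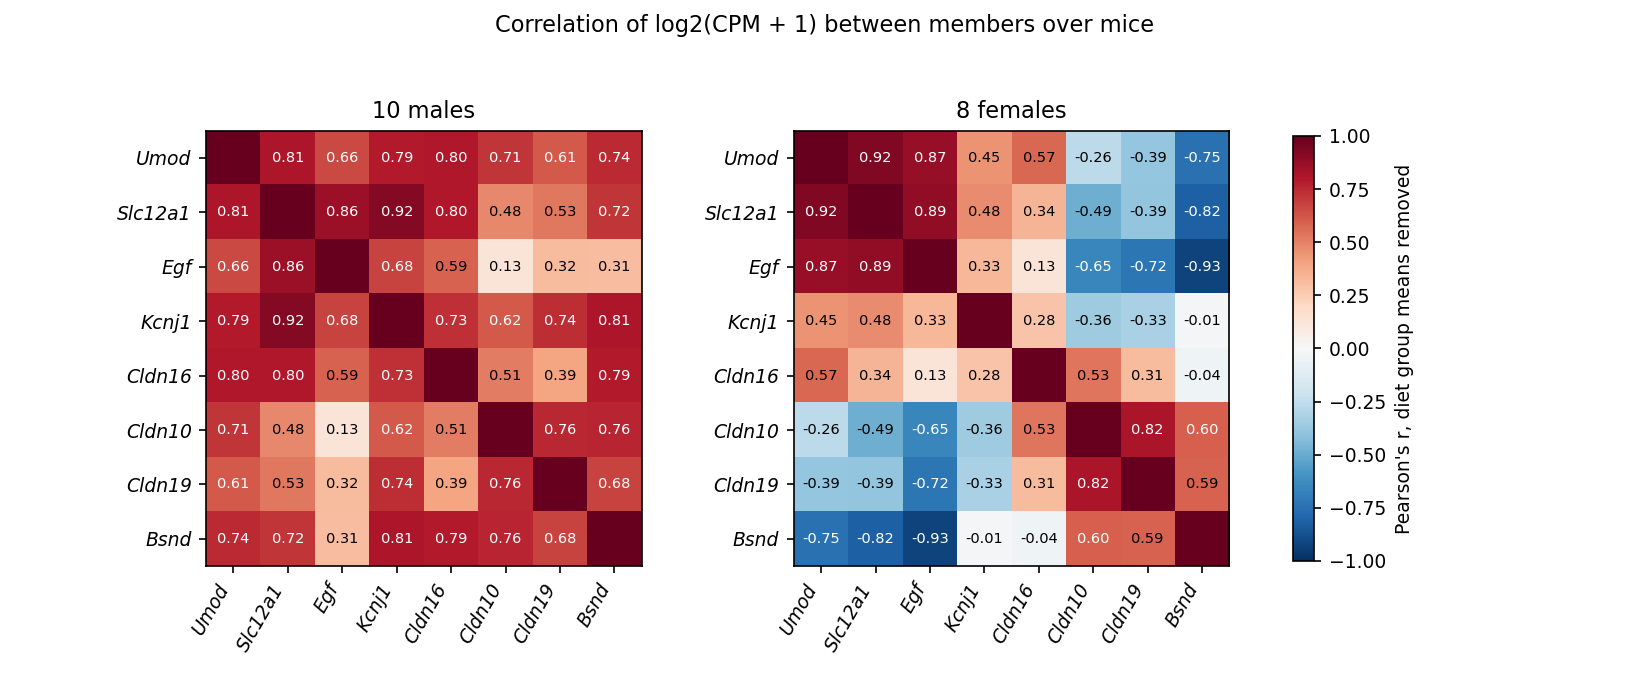
Pearson correlation between members over 10 males (left) and 8 females (right), from log2(CPM + 1) with the mean of each diet group removed. All pairs are above 0 in males, from 0.13 to 0.92, whereas in females *Bsnd* runs opposite to *Umod*, *Slc12a1*, and *Egf*, down to -0.93.

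Among 12657 other genes, those whose levels followed the mean of the 8 standardized members most closely over 18 libraries, with group means removed, were *Bst1* (Pearson's r 0.945), *Scel* (0.932), *Prdm16os* (0.924), *Epcam* (0.909), and *Pcsk6* (0.889). *Epcam*, which encodes an adhesion molecule of epithelial cells, was the most abundant of these, with a median of 108 CPM. Without LP female 1, LP female 2, and NP female 3, all 5 ranked between 3 and 9. With group means kept, *Epcam* ranked 1 and *Prdm16os* 3, and *Scel* ranked 131.

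A further 29 genes of the thick ascending limb were listed by role, as 10 transport partners, 9 hormone receptors and kinases, and 10 transcription factors and cell markers, of which 27 could be tested. By diet, 0 of 27 were called in males, in females, or in the interaction, and an unadjusted p under 0.05 was reached by 1 of 27 in males, 1 in females, and 0 in the interaction. DESeq2 called 0 of them in each. In males the smallest p was that of *Kcnj10*, a basolateral potassium channel, with a log2 fold change of 0.34 (SE 0.10, unadjusted p = 0.00578, adjusted p = 1.00, edgeR). It was at 79.3, 82.4, 74.8, 86.1, and 80.6 CPM in LP males and at 52.2, 76.6, 62.8, 69.9, and 53.1 CPM in NP males. NP male 2 lay above LP male 3 in CPM, while the groups did not overlap in normalized counts. The next were *Ptger3* (-0.38, SE 0.22) and *Rragd*, a GTPase that activates mTORC1 (0.24, SE 0.20).

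In females the smallest p was that of *Irx2*, a homeobox factor, with a log2 fold change of -0.58 (SE 0.25, unadjusted p = 0.0429, adjusted p = 0.886, edgeR). *Rragd* had 0.48 (SE 0.22), and *Cldn3*, another claudin, had -1.01 (SE 0.47). The level of *Cldn3* was low, at 1.74 to 2.88 CPM in LP females and at 5.63, 1.26, and 7.25 CPM in NP females. Males had 0.925 to 4.07 CPM of *Cldn3*. In the interaction the smallest p was that of *Cldn3*, at -1.27 (SE 0.63, unadjusted p = 0.0588, adjusted p = 0.977, edgeR). *Irx2* was at -0.70 (SE 0.36) and *Pou3f3*, a factor needed to form the loop of Henle, at -0.36 (SE 0.22).

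Between the sexes, 15 of 27 were called, 14 of them higher in females, where 38.7% of all genes were called and 19.8% were called as higher in females. Those higher in females were 3 of 9 transport partners, 5 of 8 receptors and kinases, and 6 of 10 factors and cell markers. Among transport partners, *Kcnj10* was at 96.8 to 149 CPM in females and 52.2 to 86.1 CPM in males, with a log2 fold change of 0.65 (adjusted p = 5.15e-05, SE 0.10, edgeR), while the sexes overlapped in normalized counts.

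Among receptors and kinases, *Maged2*, which supports surface expression of the cotransporter, was at 17.9 to 25.1 CPM in females and 7.70 to 12.3 CPM in males, which do not overlap. Its log2 fold change was 0.90 (adjusted p = 3.82e-07, SE 0.09, edgeR). *Ptger3*, a prostaglandin E2 receptor, had 0.80 (SE 0.20), and *Stk39*, the kinase SPAK that acts on the cotransporter, had 0.42 (SE 0.10). *Pth1r*, a receptor of parathyroid hormone that the proximal tubule also makes, was the only 1 of the 27 called as lower in females, at -0.33 (adjusted p = 0.0463, SE 0.13, edgeR), and it is named because its direction was seen to differ. It was called in 5 of 18 fits that left out 1 library, with adjusted p from 0.0165 to 0.136 over these fits.

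Among factors and cell markers, *Pou3f3* had a log2 fold change of 0.73 (SE 0.11) and *Irx2* of 0.70 (SE 0.18). *Sostdc1*, an antagonist of BMP and Wnt signals, had 0.64 (SE 0.10), with 90.1 to 128 CPM in females and 43.5 to 79.9 CPM in males. *Enox1* had 1.29 (SE 0.23), the protein phosphatase inhibitor *Ppp1r1a* 0.93 (SE 0.21), and *Mal*, a membrane protein of apical sorting, 0.47 (SE 0.12). The level of *Enox1* was low, at 1.82 to 9.95 CPM in females and 1.62 to 3.24 CPM in males. LP female 1, at 1.82 CPM, lay within the male range. Each of the 10 genes named here as higher in females stayed called in 18 of 18 fits that left out 1 library. Among them, *Enox1*, *Irx2*, and *Mal* were not called in LP mice alone. *Sostdc1*, *Ppp1r1a*, *Stk39*, *Ptger3*, and *Mal* were not called in NP mice alone. In LP mice alone 8 of 27 were called (18.9% of all genes) and in NP mice alone 5, a share near the 15.1% of all genes. Without LP female 1, LP female 2, and NP female 3 the count was 19 (37.7% of all genes). Those libraries were chosen from these same data.

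**Figure D5:**
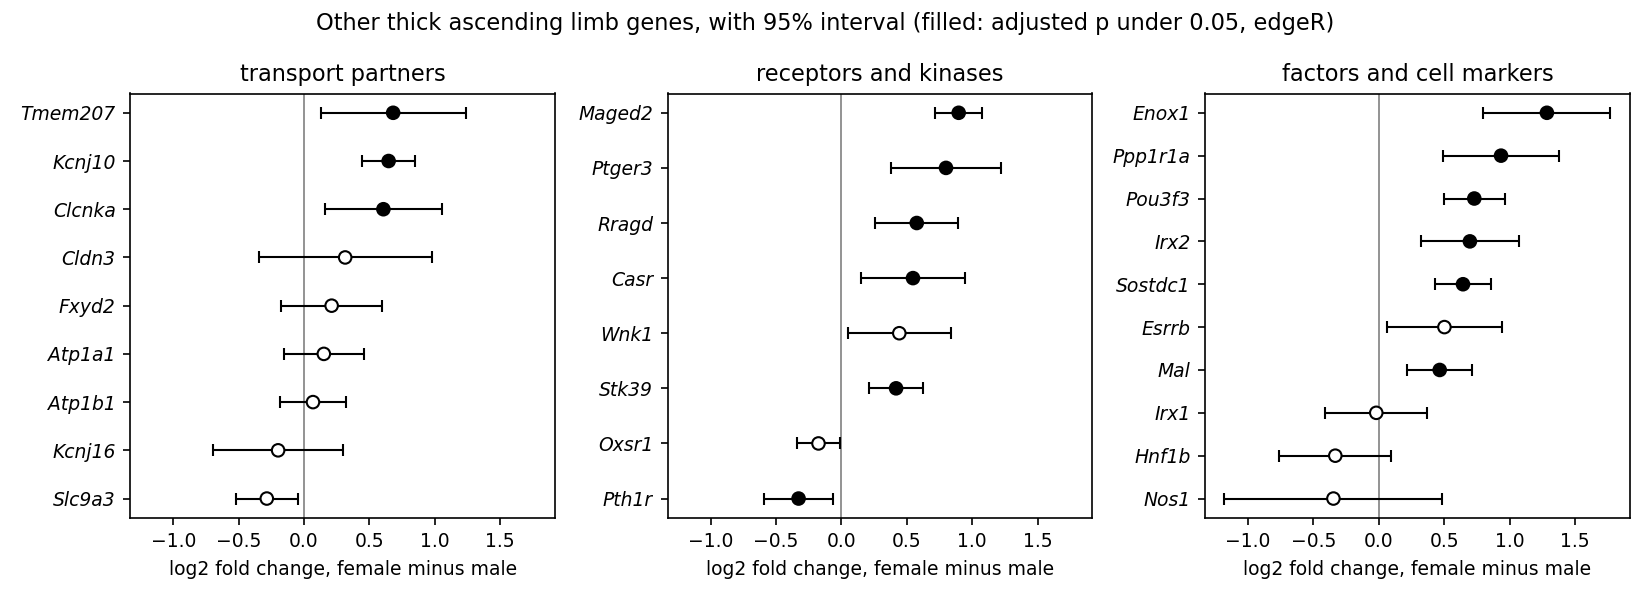
Log2 fold change, female minus male, of the other thick ascending limb genes (points) with 95% intervals (lines), in 3 panels by role. Filled points passed an adjusted p under 0.05. There are 14 filled points to the right of 0 and 1 to the left, *Pth1r* at -0.33.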

How the data were processed

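Kidney RNA of 18 mice was sequenced from poly(A)-selected, non-directional libraries. The authors removed low-quality reads and adapters, aligned with STAR (version not given in the sources used here) to GRCm39 with GENCODE vM36, and deposited raw counts of reads per gene. The column counted without strand was used. Reads not assigned to 1 gene were left out. They were 28.6% to 30.8% in males and 30.5% to 36.1% in females, with the most in NP female 3. The part of this difference in the results was not tested.

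Groups were compared in R 4.3.3 with edgeR 4.0.16 (TMM normalization, quasi-likelihood test), for genes that reached 10 counts in each library of the comparison. P-values were adjusted by Benjamini-Hochberg over all these genes, with calls at 0.05. Diets were compared within each sex, and the interaction and the sexes in a model of 4 group means. For single members, exact two-sided permutation tests were run on log2(normalized count + 1), with DESeq2 1.42.0 size factors. The fits were tested on simulated data with 200 changed genes. Deviations from the group means of same-numbered LP and NP mice had median correlations of -0.155 in males and -0.438 in females. Single pairs ranged from -0.297 to 0.327 in males and from -0.607 to -0.388 in females. Same-numbered males and females had medians of -0.032 in LP and 0.139 in NP mice. With so few pairs, these values cannot show whether numbers pair mice, and the main tests treat mice as unpaired. The litter of each mouse is not given and no test takes it into account, so p-values measure only the spread between these samples.

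The members, gene lists, motifs, and the 3 libraries set apart were chosen with earlier results of these data known. Other genes are named where an adjusted p was under 0.05 (at most 10 per comparison by smallest p), or otherwise as the 3 smallest p, and as the 5 most correlated with the members. Alternatives were DESeq2's size factors and Wald test, no filter, filterByExpr, 1 model of all groups, a replicate block, 1 diet only, leaving out each library or these 3, and, added after the data were seen, levels per canonical transcript. The symbol *Akr1b3* was unmatched and left out. One further gene of the lists and 1 upstream sequence are not reported here. Positions are from GENCODE vM39. Tables used Python 3.11.15 and pandas 2.3.3.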

Additional observations from a re-analysis of the deposited data

Results flagged for a closer look

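In NP male 5, *Cldn10* had 4354 normalized counts, apart from the 2906 to 3208 of the other 4 NP males. In LP female 2, *Cldn19* had 651 normalized counts, apart from the 277 to 342 of the other 4 LP females. In both, the gap to the nearest mouse was more than 0.71 of the range of the group, the critical value for 5 samples (0.791 and 0.827). These are 2 of 24 groups examined, and chance marks about 1 in 20. LP female 2 is one of the 3 libraries set apart by the earlier clustering.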

How the results depend on the processing

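Each comparison was refitted under 6 to 8 other settings and without each library in turn. The diet comparisons and the interaction called 0 of 8 members and 0 of 27 other thick ascending limb genes in all of these. Between the sexes, the calls were 7 members without LP female 1, LP female 2, and NP female 3, 2 in NP mice only, and 8 and 5 of the other genes in LP and NP mice only, and they ranged from 3 to 6 members and from 12 to 17 other genes without 1 library. *Slc12a1* lost its call with filterByExpr (adjusted p = 0.0552) and in LP (0.173) or NP mice only (0.172), and *Bsnd* in NP mice only (0.0654). *Cldn19* between the sexes turned to -0.072 without the 3 libraries.

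Estimates that did not pass the test changed sign. With the replicate block, female log2 fold changes were -0.044 for *Umod*, -0.18 for *Slc12a1*, and -0.37 for *Egf*, and interactions -0.081 for *Umod*, -0.098 for *Slc12a1*, and -0.021 for *Kcnj1*. The block left 4 members called between the sexes and changed no other call of members. With no filter, *Cldn16* was at 0.0035 in females and 0.016 in the interaction, and *Cldn10* at 0.041 in the interaction. With filterByExpr, the interactions were 0.024 for *Cldn10* and 0.0095 for *Cldn16*. The interaction of *Cldn10* was 0.0050 with DESeq2's size factors and with its Wald test, and that of *Umod* was -0.0063 without the 3 libraries.

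Without 1 library, male log2 fold changes ranged from -0.075 to 0.13 for *Umod*, -0.017 to 0.20 for *Slc12a1*, -0.19 to 0.086 for *Bsnd*, -0.090 to 0.067 for *Cldn16*, and -0.14 to 0.0091 for *Egf*. Female values ranged from -0.26 to 0.77 for *Umod*, -0.012 to 0.51 for *Slc12a1*, -0.090 to 0.20 for *Cldn10*, -0.15 to 0.20 for *Cldn16*, -0.67 to 0.034 for *Cldn19*, and -0.12 to 0.52 for *Egf*. Interactions ranged from -0.30 to 0.72 for *Umod*, -0.13 to 0.38 for *Slc12a1*, -0.032 to 0.15 for *Kcnj1*, -0.19 to 0.12 for *Cldn10*, -0.14 to 0.20 for *Cldn16*, -0.38 to 0.34 for *Cldn19*, and -0.077 to 0.55 for *Egf*. The cause of these changes was not tested.

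Over all genes, DESeq2 called 19 in males, 9 in females, and 5 in the interaction, against 5, 0, and 2 in edgeR. Without a filter edgeR called 9 and 3 in males and females, in 1 model of 4 groups 1 and 2, and with the block 2 and 0 in males and the interaction. Between the sexes, 4900 were called, 2505 in LP and 1954 in NP mice only. Without the 3 libraries, 1 was called in females and 0 in the interaction. With 3 NP females, differences inside the wide female intervals of *Umod*, *Slc12a1*, and *Egf* were not detectable.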
